A study of Mus musculus with 6 samples.

Results

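The genes described here are 30 that encode apolipoproteins, the machinery that loads and exports lipoproteins, the lipases that act on them, the regulators of those lipases and the receptors that clear them. They were chosen by name, as the rows of the deposited count table whose identifier carries the listed symbol in GENCODE vM21. No cutoff on their values was used, but earlier results of these data were known when they were chosen. All 30 were found among 46983 rows, and all 30 passed the filter on low counts, which left 16441 tested genes. The RNA came from whole livers of mice on a C57BL/6 background, chow-fed, untreated and 12 weeks old. One group, here the knockout, had a hepatocyte-specific deletion of AEG-1 (AEG-1DHEP), the protein encoded by Mtdh. The control group carried the floxed allele (AEG-1fl/fl) per the series description, while its sample titles read WT. The deletion covers hepatocytes only, so the other cells of the liver keep the gene, and the Cre driver is not given in the sources used here. Each group had 3 library columns, described as biological replicates from separate mice. All 46983 rows held the same value in the columns of control replicate 1 and control replicate 2. Since sampling noise alone would have set 2 separate libraries apart, this pair counts as 1 sample, named control replicate 1 from here on, and 3 knockout libraries were set against 2 control libraries.

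The liver packages triglyceride and cholesterol ester around a single large protein, apolipoprotein B, and secretes the particle as VLDL. Smaller apolipoproteins move between particles in plasma, where they act as ligands for receptors and as activators or inhibitors of lipases, and apolipoprotein A-I carries HDL, the particle that returns cholesterol to the liver. Lipases on vessel walls remove the triglyceride, proteins of the angiopoietin-like family restrain them, and hepatic receptors take up what remains. Hepatocytes make most of these transcripts, while some, such as Gpihbp1, belong to endothelial cells.

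Levels are given as CPM (counts scaled to the library total, with TMM factors for composition) in each library, and as TPM, which also divides by exon length, where genes are compared with each other. Library totals ran from 29557477 to 33685670 counts. Mtdh had 2.90, 2.23 and 2.37 CPM in knockout replicates 1, 2 and 3, against 48.0 and 54.6 CPM in control replicates 1 and 3, so every library went with its label (log2 fold change -4.36, SE 0.15, edgeR quasi-likelihood adjusted p of 0.000564). The hepatocyte marker Alb, the serum albumin, had 1585994 to 2564229 counts per library. Knockout replicate 3 differed less from control replicate 3 (chi-square per degree of freedom 49.4) than from knockout replicates 1 (86.3) and 2 (106). It differed more from control replicate 1 (157). The 2 control libraries differed most of all pairs (227), and control replicate 1 differed less from knockout replicates 1 (84.4) and 2 (91.1). The summed 8 skeletal muscle markers stood at 44.0 CPM in knockout replicate 1 and between 0.722 and 1.34 CPM in the other libraries. Many of the results below are therefore also given with single libraries left out, and a range with 1 library left out covers the edgeR and DESeq2 fits.

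None of the 30 lipoprotein genes passed the test for a difference between knockout and control livers. By the edgeR quasi-likelihood test 0 of 30 passed an adjusted p of 0.05, where 1 of 16441 tested genes (0.00608%) did, Mtdh itself. At an unadjusted p under 0.05 there were likewise 0 of 30, against 3.43% of all tested genes. DESeq2 and limma-voom also called 0 of 30 after adjustment (0.116% and 0.00608% of all genes), and at an unadjusted p under 0.05 they had 1 (Lipg, against 3.03% of all genes) and 0 (3.29%). The adjusted p was 1.00 for every member. In other edgeR fits the unadjusted count was 1 with library totals (against 3.11% of all genes), 1 with no filter on low counts (3.45%), 1 with all 6 columns (9.79%) and 2 with a replicate block (4.69%). Of the 30 log2 fold changes, 19 were above 0 (63.3%, against 52.1% of all tested genes), with a median of 0.09 against 0.01 over all tested genes. Leaving out control replicate 3 brought the members' median to 0.01, and leaving out control replicate 1 brought it to 0.17. The knockout and control libraries did not overlap for 3 members (10.0%, against 16.9% of all tested genes): Apoa2 and Apoa5 stood higher in every knockout library (8.16% of all genes did) and Scarb1 lower (8.72%).

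**Figure D1:**
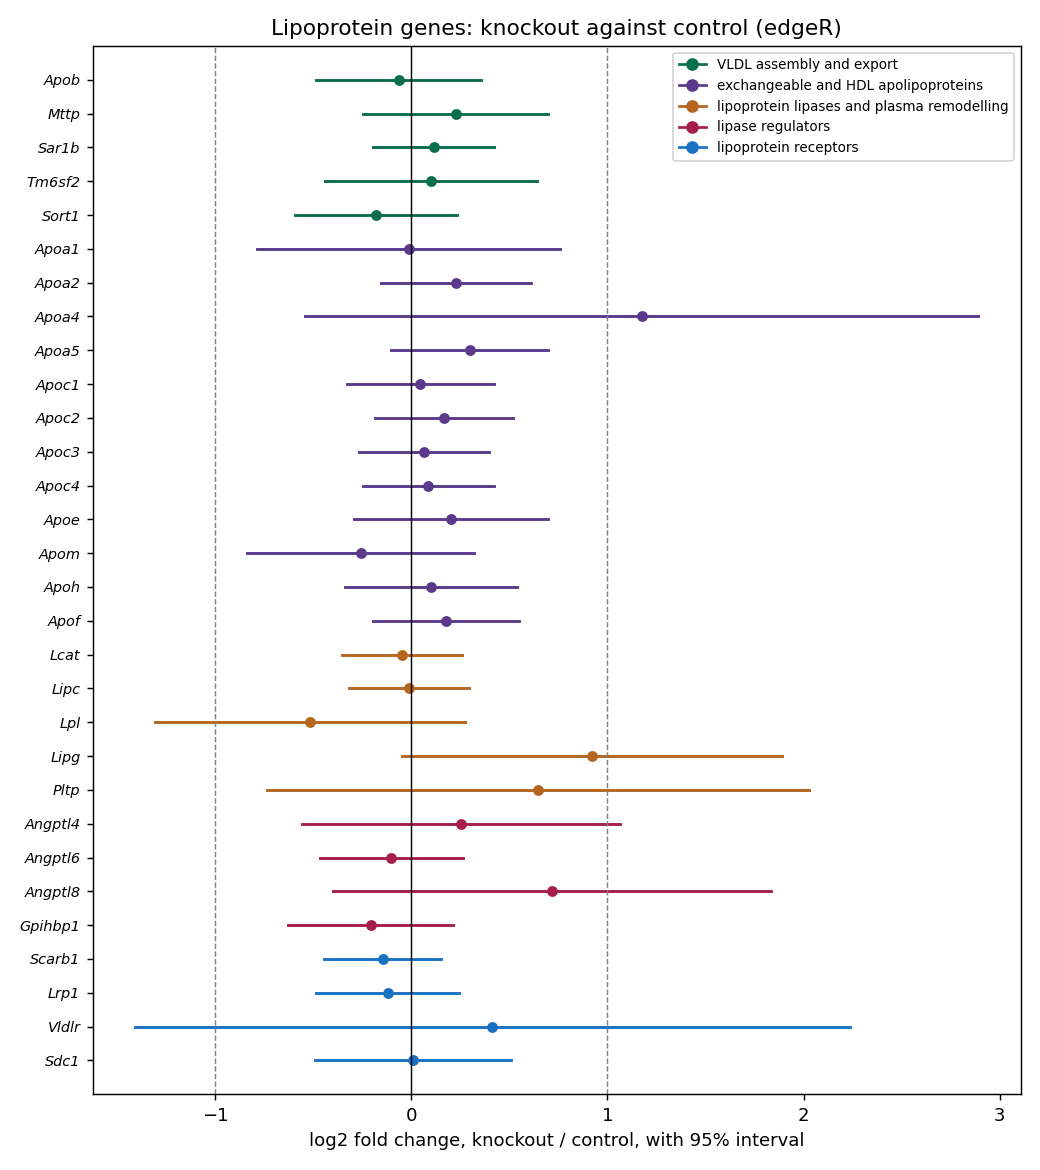
Log2 fold change of each of the 30 lipoprotein genes, knockout over control (x axis), with its 95% interval as a line, from the edgeR fit on 3 knockout and 2 control libraries. Colours mark the role of the gene, the dashed lines a 2-fold difference in either direction, and every interval includes 0.

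For 23 of the 30 members (76.7%, against 74.8% of all tested genes) the 95% interval reached no further than 1 log2 unit from 0, so a 2-fold difference in either direction fell outside it. The 7 with wider intervals were Apoa4, Lpl, Lipg, Pltp, Angptl4, Angptl8 and Vldlr. These were also 7 of the 8 members with the widest spread among libraries of 1 group, Apoa1 being the other. The median half-width of the interval was 0.42 for the members and 0.46 for all tested genes.

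Per exon length, the levels of the members differed widely. Apoa2, an HDL apolipoprotein, led with 18376 ± 3115 TPM (SD over the 5 distinct libraries of both groups, as in this paragraph), followed by Apoe with 14531 ± 3186 TPM, and the spread of the 2 overlapped. Apoc1 had 10744 ± 1504 TPM and Apoa1 6977 ± 2387 TPM. Apoc3, which slows the clearance of triglyceride-rich particles, had 2632 ± 278 TPM, and Apob 966 ± 129 TPM. At the other end stood Sort1 with 4.66 ± 0.991 TPM, Lpl with 3.99 ± 1.94 TPM and Vldlr with 0.388 ± 0.254 TPM. Together the 30 genes took 4.47%, 4.62% and 3.76% of all counts in knockout replicates 1, 2 and 3 and 4.36% and 3.46% in control replicates 1 and 3, so the groups overlapped.

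**Figure D2:**
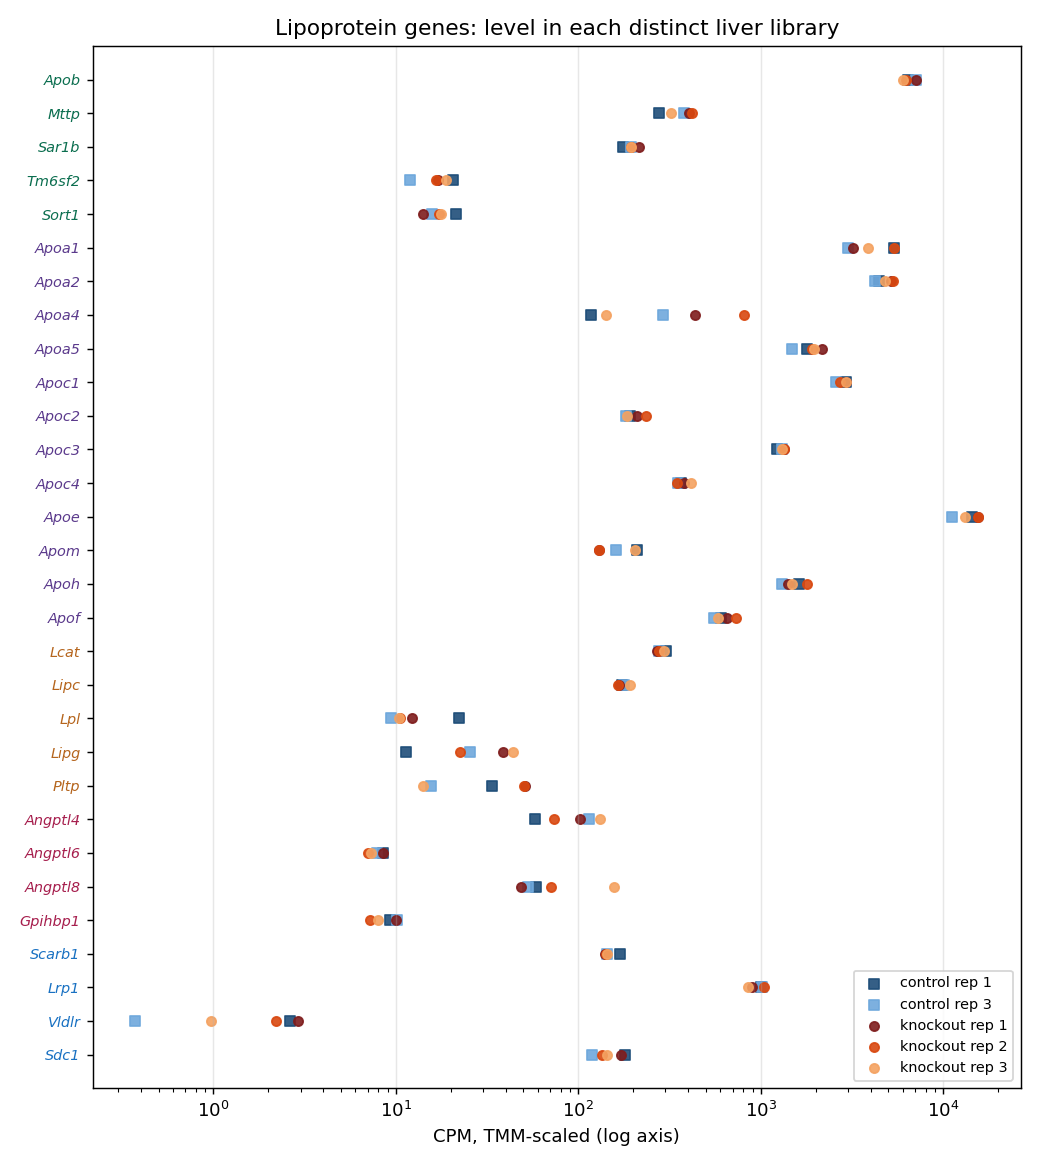
Level of the 30 lipoprotein genes in CPM on a log axis in each of the 5 distinct libraries, circles for knockout and squares for control. Gene names are coloured by role, from VLDL assembly at the top to receptors at the bottom; the libraries lie close together for most genes and apart for Apoa4, Pltp, Angptl8, Lipg, Lpl and Vldlr.

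The 5 genes of VLDL assembly and export had 3 log2 fold changes above and 2 below 0, with a median of 0.10, and the interval of each lay within a 2-fold difference. Apob, the structural protein of the particle (ENSMUSG00000020609, chromosome 12, 7977648 to 8016835 on GRCm38), had 7099, 6256 and 5995 CPM in the knockout and 6416 and 7069.9 CPM in the control libraries. The groups overlapped, and the log2 fold change was -0.06 (SE 0.18, 95% interval -0.48 to 0.36) and turned to 0.01 without control replicate 3. Mttp, the transfer protein that loads lipid onto apolipoprotein B, had 404, 421 and 322 CPM in knockout and 275 and 378 CPM in control libraries. Control replicate 1 was the lowest of the 5, and the log2 fold change of 0.23 (SE 0.20) was 0.01 without it and 0.48 without control replicate 3. Sar1b, the GTPase of the transport vesicles that leave the endoplasmic reticulum, ranged from 175 to 214 CPM over all libraries, with a log2 fold change of 0.12 (SE 0.13) that ran from 0.03 to 0.20 with 1 library left out. Tm6sf2, a membrane protein needed for lipid loading, had 17.0, 16.6 and 18.9 CPM in knockout libraries, between the 20.6 and 12.0 CPM of the controls. Its log2 fold change of 0.10 (SE 0.23) was 0.54 without control replicate 1 and turned to -0.23 without control replicate 3. Sort1, a sorting receptor that binds apolipoprotein B, had a log2 fold change of -0.18 (SE 0.17), with 14.1 to 17.6 CPM in knockout and 15.7 to 21.3 CPM in control libraries, and turned to 0.05 without control replicate 1.

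Of the 12 exchangeable and HDL apolipoproteins, 10 had log2 fold changes above 0 and 2 below, with a median of 0.13. In the genome, 8 of these 12 genes lie in 2 clusters. On chromosome 9, Apoa1, Apoc3, Apoa4 and Apoa5 occupy 46228580 to 46271919, with Apoc3 on the opposite strand to the other three. On chromosome 7, Apoc2, Apoc4, Apoc1 and Apoe lie on 1 strand between 19671579 and 19699166. The promoter windows of 3 genes of the chromosome 9 cluster are shown because these neighbours differed in how much the libraries varied. They are the 250 bases before the RefSeq start site on GRCm38.p6, read 5′ to 3′ on the plus strand, at chr9:46228380-46228629 for Apoa1, chr9:46240594-46240843 for Apoa4 and chr9:46268358-46268607 for Apoa5. Capitals mark the 2 motifs found: the box that positions transcription starts, TATAAA, and the E-box, CACGTG.
Apoa1: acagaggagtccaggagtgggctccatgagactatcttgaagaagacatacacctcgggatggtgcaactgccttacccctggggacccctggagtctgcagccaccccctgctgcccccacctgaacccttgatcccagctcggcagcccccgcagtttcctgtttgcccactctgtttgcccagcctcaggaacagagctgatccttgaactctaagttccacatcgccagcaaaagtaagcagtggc
Apoa4: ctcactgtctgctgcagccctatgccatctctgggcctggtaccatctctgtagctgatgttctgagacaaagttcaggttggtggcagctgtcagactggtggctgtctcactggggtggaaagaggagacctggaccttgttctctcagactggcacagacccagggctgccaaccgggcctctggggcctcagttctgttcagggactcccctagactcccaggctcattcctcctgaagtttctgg
Apoa5: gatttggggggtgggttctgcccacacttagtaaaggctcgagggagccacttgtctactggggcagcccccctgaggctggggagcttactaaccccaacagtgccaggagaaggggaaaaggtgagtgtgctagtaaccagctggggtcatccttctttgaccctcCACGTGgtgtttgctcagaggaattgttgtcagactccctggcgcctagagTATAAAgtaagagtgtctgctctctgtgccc
Each window was searched on both strands for both of these and for the nuclear receptor half-site AGGTCA, the HNF4A core CAAAGTCCA and the C/EBP site TTGCGCAA, which do not overlap each other in these windows. The Apoa5 window held TATAAA starting 31 bases and CACGTG starting 82 bases before the start site. RefSeq gives Apoa5 a second, later start site (window chr9:46268383-46268632), from which the same letters lie 56 and 107 bases upstream. The Apoa1 and Apoa4 windows held none of the 5. Both windows reach past the start of the counted row (46228580 for Apoa1 and 46240696 for Apoa4), so part of each lies inside that row. Over all 32851 RefSeq windows of this length, 12.4% held TATAAA, 6.02% CACGTG, 14.0% AGGTCA, 0.384% CAAAGTCCA and 0.164% TTGCGCAA. Windows were matched for 20 of the 30 members, of which 4 held TATAAA (Apoa2, Apoa5, Apob and Apoe), 5 AGGTCA (Apoa2, Apoc2, Apoc4, Apoh and Lipc) and 1 CACGTG. Those are counts of genes, some with several windows. Counted by window, like the shares over all windows, 5 of 26 held TATAAA, 5 AGGTCA and 2 CACGTG. No window was matched for Angptl4, Apoc1, Apoc3, Apof, Gpihbp1, Lipg, Lpl, Scarb1, Sort1 and Tm6sf2. A match of letters is not a bound site.

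Within the chromosome 9 cluster, Apoc3 was among the most even members and Apoa4 among the least. Apoa4, an apolipoprotein of HDL and triglyceride-rich particles (ENSMUSG00000032080, 46240696 to 46243459), had 438, 804 and 142 CPM in the knockout and 118 and 291 CPM in the control libraries. Knockout replicates 1 and 2 lay above both controls and knockout replicate 3 between them. The highest knockout library stood 5.68-fold above the lowest and the controls differed 2.47-fold. The log2 fold change was 1.18 (SE 0.72, 95% interval -0.54 to 2.89), and it was 0.50 without knockout replicate 2, 0.66 without control replicate 1 and 1.97 without control replicate 3. An antisense row, Gm10680, shares 34.8% of the exon bases of Apoa4 and holds 0 counts in every library. The strand setting of the counting is not given, so the Apoa4 counts may miss reads in that stretch.

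Apoc3 (46232933 to 46235636) had 1330.0, 1347 and 1304 CPM in knockout and 1227 and 1309 CPM in control libraries. The largest ratio within a group was 1.07, the smallest of the 30 members, and the log2 fold change was 0.07 (SE 0.14, 95% interval -0.27 to 0.40), or 0.01 to 0.12 with 1 library left out. Apoa1, the main protein of HDL (46228580 to 46230466), had 3198, 5352 and 3877 CPM in knockout and 5371 and 2989 CPM in control libraries. The controls alone spanned the knockout values, the log2 fold change was -0.01 (SE 0.32), and its sign turned without knockout replicate 1 (0.14), knockout replicate 3 (0.03) or control replicate 1 (0.47), while it reached -0.24 when knockout replicate 2 was left out and -0.37 when control replicate 3 was. Apoa5, which promotes lipolysis of triglyceride-rich particles (46268633 to 46271919), had 2171, 1902 and 1956 CPM in knockout and 1796 and 1473 CPM in control libraries. Every knockout library lay above both controls, with means of 2009.6 ± 142 (SD, n = 3) and 1635 ± 228 CPM (SD, n = 2). Its log2 fold change of 0.30 (SE 0.17, 95% interval -0.10 to 0.70) did not pass the edgeR test, and was 0.16 without control replicate 3. The 4 neighbours of this cluster thus had log2 fold changes between -0.01 and 1.18.

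The chromosome 7 cluster varied less. Apoe, the ligand by which remnant particles bind hepatic receptors (ENSMUSG00000002985, 19696109 to 19699166), had 15386, 15544 and 13122 CPM in knockout and 14322 and 11182 CPM in control libraries. The groups overlapped, and the log2 fold change of 0.20 (SE 0.21) was 0.04 without control replicate 3 and 0.39 without control replicate 1. Apoc1, an inhibitor of particle uptake, ranged from 2575 to 2936 CPM with a log2 fold change of 0.05 (SE 0.16) that turned to -0.04 without control replicate 3. Apoc2, the cofactor of lipoprotein lipase, had 209, 235 and 184 CPM in knockout and 191 and 182 CPM in control libraries, and a log2 fold change of 0.17 (SE 0.15). Apoc4 ranged from 349 to 416 CPM, with a log2 fold change of 0.09 (SE 0.14). Leaving out 1 library moved Apoc2 between 0.07 and 0.25 and Apoc4 between 0.01 and 0.15. The rows of Apoc2 and Apoc4 share 112 exon bases on the same strand, 12.0% of Apoc2 and 24.1% of Apoc4, so how reads were split between them is uncertain.

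Outside the clusters, Apoa2 was the other apolipoprotein without overlap between the groups. It had 5183, 5294 and 4814 CPM in knockout and 4460.2 and 4238 CPM in control libraries, with means of 5097 ± 251 (SD, n = 3) and 4349 ± 157 CPM (SD, n = 2). The log2 fold change of 0.23 (SE 0.16, 95% interval -0.16 to 0.61) did not pass the edgeR test and stayed between 0.19 and 0.27 with any single library left out. Apom, the HDL protein that binds sphingosine-1-phosphate, had 129, 129.9 and 205 CPM in knockout and 208 and 161 CPM in control libraries. Knockout replicates 1 and 2 lay below both controls and knockout replicate 3 between them. Its log2 fold change of -0.26 (SE 0.24) was -0.51 once knockout replicate 3 was left out and -0.07 once control replicate 1 was. Apoh, a plasma glycoprotein that binds phospholipid, had a log2 fold change of 0.10 (SE 0.18), which turned to -0.01 when knockout replicate 2 was left out and to -0.04 when control replicate 3 was, and Apof, the lipid transfer inhibitor protein, one of 0.18 (SE 0.16), or 0.09 to 0.25 with 1 library left out, both with overlapping groups.

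Of the 5 lipases and remodelling proteins, 2 had log2 fold changes above 0 and 3 below. Lipg, the endothelial lipase that acts mainly on HDL phospholipid (ENSMUSG00000053846, chromosome 18, 74939322 to 74961263), had the smallest p of the 30 members. It had 38.8, 22.3 and 43.7 CPM in knockout and 11.4 and 25.6 CPM in control libraries. Knockout replicates 1 and 3 lay above both controls, knockout replicate 2 lay below control replicate 3, and the means were 34.9 ± 11.2 (SD, n = 3) and 18.5 ± 10.0 CPM (SD, n = 2). The log2 fold change was 0.92 (SE 0.40, 95% interval -0.05 to 1.89), with an edgeR unadjusted p of 0.0594 and an adjusted p of 1.00. Without control replicate 1 it was 0.45, and without control replicate 3 it was 1.62, where DESeq2 called Lipg with an adjusted p of 0.00936 against the single remaining control (0.861% of all genes were called in that fit). The 12 endothelial markers summed to 288, 237 and 206 CPM in knockout and 276 and 327 CPM in control libraries, 11 of 12 with a log2 fold change below 0, and their part in the Lipg values was not tested.

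Lpl, the lipoprotein lipase best known from fat and muscle, had 12.3, 10.6 and 10.4 CPM in knockout and 22.2 and 9.42 CPM in control libraries. Control replicate 1 alone stood apart. The log2 fold change of -0.51 (SE 0.33, 95% interval -1.31 to 0.28) turned to 0.23 without that library. It was -1.0 without control replicate 3, a fit in which control replicate 1 was the only control. The 12 macrophage markers summed to 428, 355 and 373 CPM in knockout and 380 and 484 CPM in control libraries. The 8 adipocyte markers summed to 24.03, 31.8 and 11.4 CPM in knockout and 12.3 and 14.0 CPM in control libraries, and the defining ones among them, Adipoq, Lep and Plin1, had at most 1 count in any library. The muscle markers were high in knockout replicate 1, and without that library the Lpl value was -0.59. The part of macrophages in the Lpl values was not tested. Pltp, the phospholipid transfer protein, had 51.0, 50.2 and 14.1 CPM in knockout and 33.5 and 15.5 CPM in control libraries. Knockout replicates 1 and 2 were highest and knockout replicate 3 was the lowest of all. Its log2 fold change of 0.65 (SE 0.58) ran from 0.20 without control replicate 3 and 0.39 and 0.40 without knockout replicates 1 and 2 to 1.04 when knockout replicate 3 and 1.30 when control replicate 1 was left out. The Pltp row shares 19.3% of its exon bases with the opposite-strand gene Ctsa, so part of these reads cannot be assigned with certainty. Lipc, the hepatic lipase, and Lcat, the enzyme that esterifies cholesterol on HDL, were among the most even members. Lipc ranged from 165 to 191 CPM and Lcat from 271 to 302 CPM, with log2 fold changes of -0.01 (SE 0.13, 95% interval -0.32 to 0.30) and -0.05 (SE 0.13, 95% interval -0.35 to 0.26). Both were so near 0 that leaving out a library changed the sign, to between 0.01 and 0.02 for Lipc without knockout replicate 1, knockout replicate 2 or control replicate 3, and to 0.01 for Lcat without control replicate 1.

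**Figure D3:**
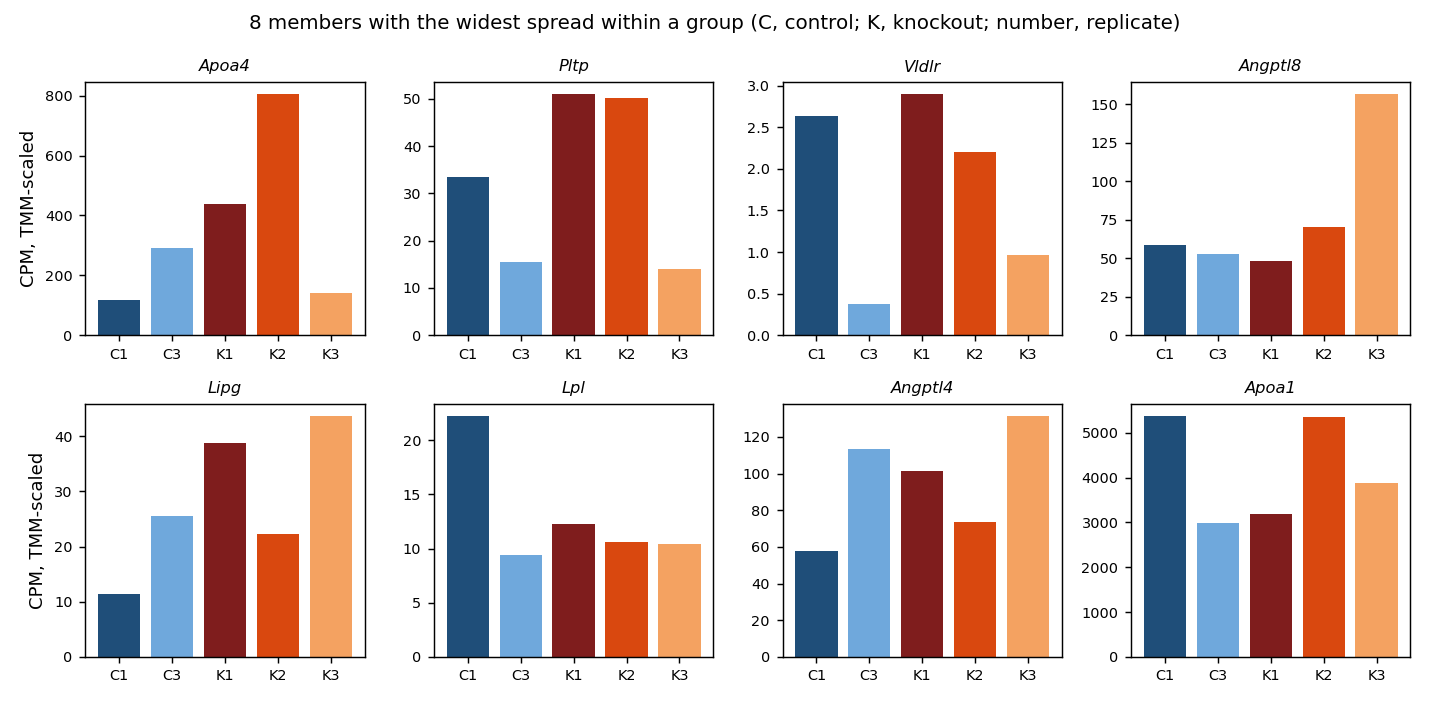
CPM in each distinct library for the 8 members with the largest ratio between libraries of 1 group (bars from 0; C1 and C3 are control, K1 to K3 knockout replicates). Apoa4 and Pltp are highest in K1 and K2, Angptl8 is highest in K3, Lpl is highest in C1, and Vldlr is lowest in C3.

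The 4 lipase regulators were split, 2 above and 2 below 0. Angptl8, a hepatic hormone induced by feeding that inhibits lipoprotein lipase (ENSMUSG00000047822, chromosome 9, 21835510 to 21837346), had 48.4, 70.4 and 156 CPM in knockout and 58.8 and 52.7 CPM in control libraries. Knockout replicate 3 stood 3.23-fold above knockout replicate 1, which was the lowest of all 5. The log2 fold change was 0.72 (SE 0.47, 95% interval -0.40 to 1.83), and without knockout replicate 3 it was 0.09. The window of 250 bases before its RefSeq start site, on the plus strand of GRCm38.p6 at chr9:21835260-21835509, is shown because this gene had the single highest library among the regulators, and it held none of the 5 motifs, so it has no capitals.
Angptl8: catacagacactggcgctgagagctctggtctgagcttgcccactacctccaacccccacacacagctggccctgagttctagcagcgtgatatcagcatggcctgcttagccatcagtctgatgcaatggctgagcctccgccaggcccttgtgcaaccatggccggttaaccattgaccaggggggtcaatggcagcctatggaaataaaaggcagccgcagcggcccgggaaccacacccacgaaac
Angptl4, the fasting-induced inhibitor of lipoprotein lipase, had 102, 73.7 and 131 CPM in knockout and 57.9 and 114 CPM in control libraries. The groups overlapped, and the log2 fold change of 0.25 (SE 0.34) moved to 0.82 when control replicate 3, to 0.03 when knockout replicate 3 and to -0.16 when control replicate 1 was left out. Knockout replicate 3 thus had the highest level of both Angptl8 and Angptl4.

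Genes that respond to feeding were read beside these 2 regulators. The 12 genes known to be higher after feeding summed to 20862, 19453 and 10929 CPM in knockout and 13305 and 9561 CPM in control libraries, and all 12 had log2 fold changes above 0 (median 0.64). Knockout replicate 3, where Angptl8 was highest, was the lowest knockout library in that sum. Single genes of the list differed in this. In the knockout libraries Fasn (1504, 1197 and 1253 CPM) and Elovl6 (311, 144 and 213 CPM) were lowest in replicate 2, and Acacb (149, 187 and 108 CPM) in replicate 3. The 10 genes known to be higher in fasting summed to 7013, 5331 and 6632 CPM in knockout and 4565 and 5788 CPM in control libraries, with 9 of 10 above 0 (median 0.52). None of either list passed the edgeR test over all genes. At an unadjusted edgeR p under 0.05 there were 4 of the 12 and 2 of the 10, against 3.43% of all tested genes. The groups did not overlap for 5 of the 12 and 2 of the 10, against 16.9% of all tested genes. DESeq2 on all 5 libraries called Fasn, with an adjusted p of 4.57e-09 (0.116% of all genes were called). The part of feeding state in the Angptl8 and Angptl4 values was not tested. Angptl6, a secreted relative, was low and even at 7.06 to 8.54 CPM, with a log2 fold change of -0.10 (SE 0.15), between -0.19 and -0.04 with 1 library left out, and shares 16.7% of its exon bases with an opposite-strand row. Gpihbp1, the endothelial anchor of lipoprotein lipase, had 10.0, 7.24 and 7.97 CPM in knockout and 9.33 and 10.1 CPM in control libraries, which gave -0.21 (SE 0.18) as its log2 fold change, between -0.35 and -0.11 with 1 library left out. Gpihbp1 was lowest in knockout replicates 2 and 3, as were the summed endothelial markers. In whole liver, fewer cells of a type and less RNA per cell cannot be told apart.

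Of the 4 receptors, Scarb1, the receptor that takes cholesterol ester from HDL, was the 1 member with every knockout library below the controls. It had 139, 142 and 143 CPM in knockout and 169 and 144 CPM in control libraries. Knockout replicate 3 and control replicate 3 were less than 2 CPM apart, so the separation rested on a narrow gap. The log2 fold change of -0.14 (SE 0.12, 95% interval -0.44 to 0.15) did not pass the edgeR test and was -0.03 without control replicate 1. Lrp1, the large receptor for remnant particles, had 889, 1043 and 855 CPM in knockout and 1000.5 and 1019 CPM in control libraries, a log2 fold change of -0.12 (SE 0.15), between -0.21 and -0.06 with 1 library left out. Sdc1, the heparan sulfate proteoglycan that also binds remnants, had 172, 135 and 143 CPM in knockout and 179 and 118 CPM in control libraries. Its log2 fold change of 0.01 (SE 0.21) was 0.34 without control replicate 1 and turned to -0.10 without knockout replicate 1 or -0.26 without control replicate 3. Vldlr, a receptor with little expression in liver, had 89, 73 and 31 counts in knockout and 84 and 11 counts in control libraries. The controls differed 7.08-fold, and the log2 fold change of 0.41 (SE 0.76) was 2.42 without control replicate 1 and -0.38 without control replicate 3. Vldlr is also known from muscle, and without knockout replicate 1 its value was 0.07.

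**Figure D4:**
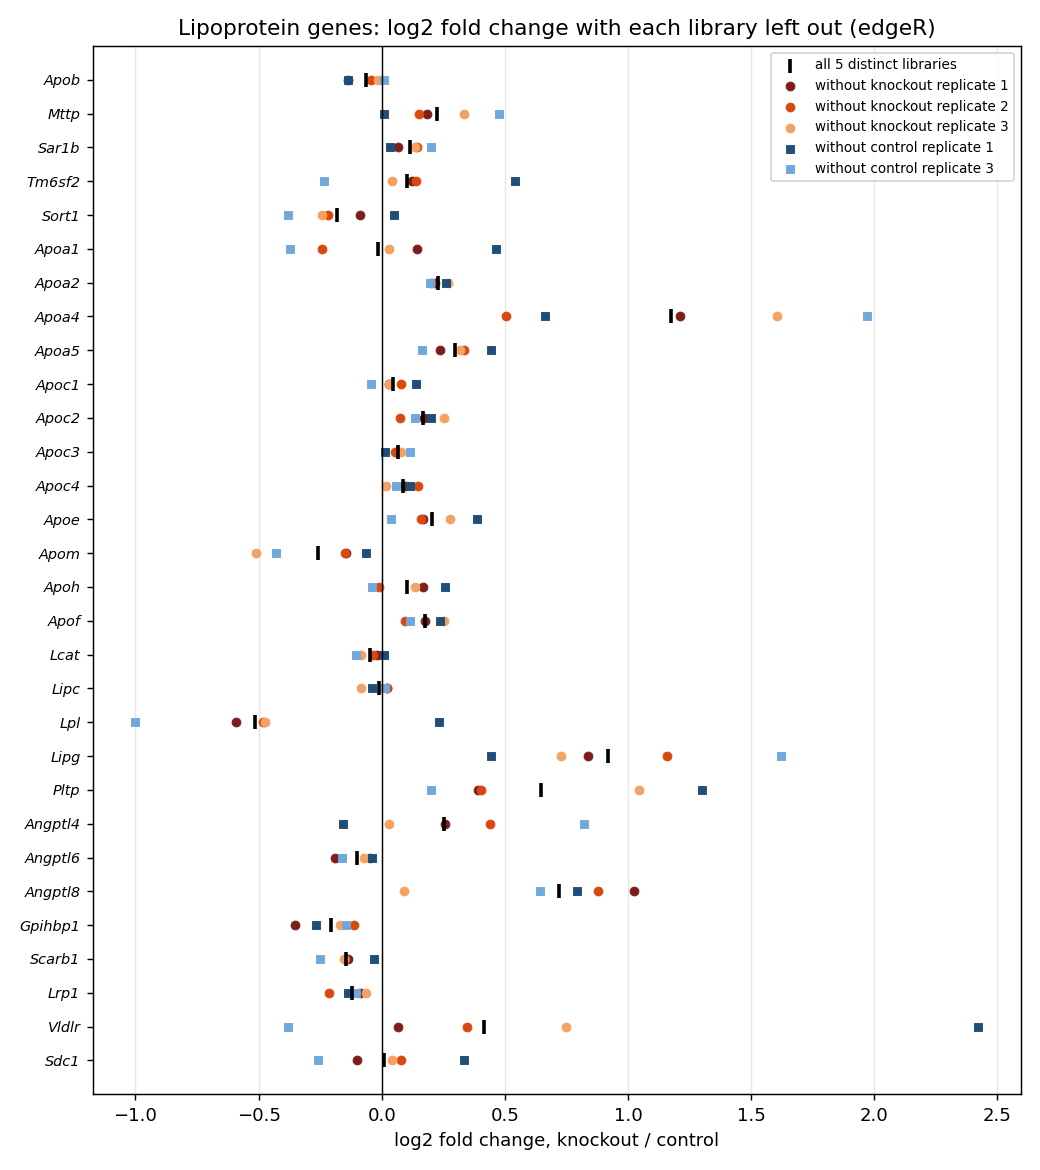
Log2 fold change of each lipoprotein gene (x axis) from all 5 distinct libraries (black bar) and with 1 library left out (circles for a knockout, squares for a control library). Leaving out control replicate 1 or 3 moves Vldlr, Lpl, Pltp, Lipg and Apoa4 the most, while Apoa2, Apoc3 and Apoc4 barely move.

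Other genes of the same routes were read from lists that name no member. Among 18 further genes of VLDL assembly and export, 12 had log2 fold changes above 0 and 6 below, with a median of 0.04, and 0 passed the edgeR test. Cidec, a lipid droplet protein, had 9.54, 9.66 and 4.81 CPM in knockout and 3.45 and 4.61 CPM in control libraries, a log2 fold change of 0.99 (SE 0.34, edgeR adjusted p of 1.00), highest in knockout replicates 1 and 2 like Apoa4 and Pltp. DESeq2 without knockout replicate 3, the knockout library whose Cidec level lay nearest the controls, called Cidec with an adjusted p of 0.00373. In that fit 0.443% of all genes were called. That fit was added after seeing the data, and DESeq2 on all 5 libraries did not call Cidec (adjusted p of 0.928). The summed adipocyte markers were, like Cidec, highest in knockout replicates 1 and 2. Of the 4 tested, 3 were above 0 (Plin4, Cidea and Cfd), with a median log2 fold change of 1.17 over the 4. Plin4 had 12.4, 21.2 and 6.19 CPM in knockout and 4.77 and 6.71 CPM in control libraries. Cidea had 2.28, 2.72 and 0.906 CPM in knockout and 0.754 and 1.05 CPM in control libraries. Cfd had 2.08, 1.81 and 0.375 CPM in knockout and 0.408 and 0.542 CPM in control libraries. Fabp4 was the 1 below 0, with 7.20, 6.03 and 3.94 CPM in knockout and 6.31 and 5.62 CPM in control libraries. Adipoq, Lep and Plin1 had at most 1 count in any library. The 8 small intestine markers summed to 243, 257 and 190 CPM in knockout and 170 and 180 CPM in control libraries. Sis, Alpi and Lct, which define that tissue, had 0 or 1 count in every library. Most of the difference in the sum lay in Fabp2, with 129, 127 and 71.1 CPM in knockout and 56.01 and 64.5 CPM in control libraries. Anpep ranged from 98.3 to 107 CPM over all libraries. Of the 3 markers tested, 2 had log2 fold changes above 0 and 1 below, and 1 had an unadjusted edgeR p under 0.05. Cideb, which works in VLDL lipidation, stood at a log2 fold change of 0.17 (SE 0.12) and Plin2, the droplet coat protein, at 0.53 (SE 0.46), which was 0.03 without knockout replicate 2 and 0.87 without knockout replicate 3. Of 15 genes of the LDL receptor pathway, 7 were above and 8 below 0 with a median of -0.01, and Lipa, the lysosomal acid lipase, had the smallest p with 0.33 (SE 0.21). The others named by the smallest p were Lrp6 with -0.17 (SE 0.12) and Commd1 with 0.14 (SE 0.12). Of 13 genes of HDL formation and plasma esterases, 5 were above and 8 below 0. Pla2g7, the plasma acetylhydrolase of platelet-activating factor, had a log2 fold change of -0.66 (SE 0.29), Pcolce2 one of -0.46 (SE 0.22) and Pdzk1, the scaffold that holds Scarb1 at the membrane, one of 0.15 (SE 0.12).

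Of 10 other genes that act on lipases or fatty acid entry, 5 were above and 5 below 0. Cd36, a fatty acid transporter, had 92.9, 82.5 and 19.3 CPM in knockout and 30.1 and 49.8 CPM in control libraries, a log2 fold change of 0.70 (SE 0.62). Knockout replicate 3 was the lowest of the 5 libraries, and the same added DESeq2 fit without it called Cd36 with an adjusted p of 0.0164. DESeq2 on all 5 libraries did not call Cd36. The log2 fold change of Cd36 ran from 0.35 to 1.13 with 1 library left out, and Cd36 was highest in the same 2 libraries as the summed adipocyte markers. Hspg2, a matrix proteoglycan, had -0.37 (SE 0.17) and Gpc3 -0.37 (SE 0.37), which turned to 0.05 without control replicate 3. Of 21 transcription factors and coregulators known to act on apolipoprotein genes, 16 were above 0 and 5 below, with a median of 0.07. Ppargc1a, a coactivator of hepatic fasting genes, had 11.7, 11.2 and 9.66 CPM in knockout and 8.67 and 6.54 CPM in control libraries, a log2 fold change of 0.51 (SE 0.18). Nr1h4, the bile acid receptor FXR, had 0.43 (SE 0.21), and Lpin1, a phosphatidate phosphatase and coactivator, 1.01 (SE 0.54), which moved to 0.42 when knockout replicate 3 and to 1.53 when control replicate 3 was left out. None of the genes in this paragraph passed the edgeR test on all 5 libraries, where 0.00608% of all genes did.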

How the data were processed

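RNA-seq of whole mouse liver was analysed from 1 deposited table of read counts per gene, raw and not normalized per the file headers and values. The submitters' processing notes name featureCounts 1.4.6-p4, Subread 1.4.6-p4, Trimmomatic 0.33 and FastQC as the authors' tools and mm10 (GRCm38) as the build. The sources used here give no strand setting and no annotation release. Symbols came from GENCODE vM21, which holds 46488 of 46983 identifiers on the same build. Genes were kept by filterByExpr, scaled by TMM and tested two-sided by the quasi-likelihood method of edgeR with the ordinary, not the robust, prior. Benjamini-Hochberg adjustment ran over 16441 genes (threshold 0.05), SEs were derived from the F statistic, and 95% intervals use the moderated degrees of freedom. TPM was computed from counts and the exon length of the table. A count of 3 equals 0.101 CPM in the smallest and 0.0891 in the largest library, counting error only. Alternatives were DESeq2, limma-voom, other scalings, filters, all 6 columns, a replicate block and each library left out. The script was tested on simulated data. Members and lists were chosen with earlier results of these data known. The text names all 30 members, Mtdh and the 3 genes of smallest p of each related list. One listed marker symbol, Tf, had no match. Python 3.11.15 and, under R 4.3.3, DESeq2 1.42.0, limma 3.58.1 and edgeR 4.0.16 were used. The design called for 3 libraries a group, and the identical control column left 2 controls.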

Additional observations from a re-analysis of the deposited data

How the results depend on the processing

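Under 20 alternatives, 557 of 600 log2 fold changes of the members kept their sign, and 18 of the 30 members never reversed. With 2 control libraries each control weighs heavily; fits with 1 control assume that it varies like the knockouts. Upper-quartile scaling gave Sdc1 -0.019 and limma-voom gave Apoa1 0.016. DESeq2 called 19 genes and no low-count filter 3, each with 1 member at an unadjusted p under 0.05. Library totals gave 1 such member and Lipc 0.0021, and all 6 columns 1, with Tm6sf2 -0.019 and Sdc1 -0.084. A replicate block called 0 genes and had 2 members (Angptl4 and Lipg) at an unadjusted p under 0.05, with Mtdh -4.28 (adjusted p of 0.0517), Apoh -0.00071, Lipc 0.021 and Plin2 -0.061. The libraries share only a number: the block has 2 pairs, whose deviations correlated at 0.0116 and 0.138.

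With 1 library left out, in edgeR and DESeq2 (the latter added after seeing the data), genes past the threshold ran from 1 to 147, members past it from 0 to 2, members at an unadjusted p under 0.05 from 1 to 3 (1.8% to 6.04% of all genes) and their median from 0.012 to 0.17. Reversals occurred within -0.14 to 0.012 (Apob), -0.23 to 0.54 (Tm6sf2), -0.38 to 0.050 (Sort1), -0.37 to 0.47 (Apoa1), -0.042 to 0.14 (Apoc1), -0.041 to 0.26 (Apoh), -0.10 to 0.011 (Lcat), -0.088 to 0.023 (Lipc), -1.0 to 0.23 (Lpl), -0.16 to 0.82 (Angptl4), -0.38 to 2.43 (Vldlr), -0.26 to 0.34 (Sdc1) and -0.71 to 0.053 (Gpc3). Each such fit also held fewer libraries, and the cause of the reversals was not tested. Vldlr had the fewest counts of the members, 11 to 89 per library.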

Other observations

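Heparan sulfate on hepatocytes binds remnant particles, and its synthesis genes were read with the sinusoidal scavenger receptors. Of 18 genes, 9 had log2 fold changes above 0 and 9 below, and none passed the edgeR test (0 of 18 after adjustment). At an unadjusted edgeR p under 0.05 there was 1 of 18, against 3.43% of all tested genes. That gene was B4galt7, which builds the linker of the chains, with 11.3, 10.1 and 11.2 CPM in knockout and 8.70 and 8.74 CPM in control libraries, a log2 fold change of 0.32 (SE 0.13). Glce, the epimerase of the chains, had 0.18 (SE 0.11), and Stab1, a scavenger receptor of sinusoidal endothelium, -0.28 (SE 0.13). The groups did not overlap for 4 of the 18 genes (against 16.9% of all tested genes). B4galt7, Glce and Stab1 were among these, and they were named for having the smallest p of the list.

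Other genes that carry an apolipoprotein name, or that encode the HDL-borne serum amyloid A proteins, were tested for 12 of 17, with 5 above and 7 below 0 and none past the edgeR threshold. Saa1, an acute phase protein carried on HDL, had 31.8, 72.6 and 17.0 CPM in knockout and 72.7 and 66.2 CPM in control libraries. Knockout replicate 2 matched the controls, and the log2 fold change of -0.78 (SE 0.53) was -1.51 without it. With that library left out, DESeq2 called Saa1 with an adjusted p of 0.000665 (0.303% of all genes were called in that fit). That fit was added after seeing the data, and DESeq2 on all 5 libraries did not call Saa1 (unadjusted p of 0.295). Apol9a had 0.22 (SE 0.14) and Apol10b -0.58 (SE 0.40). Among the feeding-related genes, Fasn had 1.15 (SE 0.17), Acacb 0.98 (SE 0.23), Elovl6 1.04 (SE 0.32), Igfbp1 -0.75 (SE 0.27) and Fgf21 1.31 (SE 0.64). By edgeR no gene of the feeding lists passed after adjustment, and by DESeq2 Fasn did, with an adjusted p of 4.57e-09 on all 5 libraries.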
